A study of Mus musculus with 11 samples.

Results

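The genes described here are 9 genes of epithelial identity, *Trp63*, *Grhl2*, *Grhl3*, *Epcam*, *Cdh1*, *Esrp1*, *Krt8*, *Krt18* and *Cldn6*. They were chosen by name, as genes of the surface epithelium of the face, the layer that expresses *Wnt9b*, and several of them are linked to orofacial clefts in humans or mice. All 9 matched 1 Ensembl identifier each among the 38561 genes counted, and all 9 passed the filter on low counts, which left 17317 genes. RNA-seq had been carried out on facial process explants (the mandibular and maxillary arches and the nasal processes) dissected from mouse embryos of mixed strain at E10.5. The 11 libraries analysed here were 2 labelled wild type (wt), 3 labelled as homozygous mutants of *Wnt9b* (Wnt9bKO), 3 as homozygous mutants of *Rspo2* (Rspo2KO) and 3 as homozygous for both mutations (DKO). The mutations were germline alleles, so epithelium and mesenchyme carried them alike. The labels do not say whether libraries of a genotype came from separate embryos, so that p-values measure only the spread between these libraries, which may be technical.

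The facial surface epithelium covers a core of neural crest mesenchyme and sends it WNT, FGF, SHH and BMP signals, while the R-spondin RSPO2 acts as an enhancer of WNT signaling at the receiving cell. The epithelium itself is kept as a sheet by the adhesion molecules E-cadherin and EpCAM and by tight junctions, and its program is set by p63 and the Grainyhead-like factors. Where facial processes meet, the epithelial surfaces first adhere and then give way to continuous mesenchyme, and defects in this layer are a known source of cleft lip and palate.

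The labels were checked first at the genes they name. *Rspo2* was at 14.8 and 16.01 CPM (counts scaled to a common library total with TMM factors) in the wt libraries and at 6.59, 4.80 and 4.74 CPM in those labelled Rspo2KO. It was at 22.8, 2.86 and 18.1 CPM in the libraries labelled Wnt9bKO 1, 2 and 3 and at 4.17, 3.67 and 15.5 CPM in those labelled DKO 1, 2 and 3, so that by whole-gene *Rspo2* level Wnt9bKO 2 and DKO 3 went against their labels. *Wnt9b* was at 10.8 and 13.4 CPM in wt, at 23.3, 16.3 and 16.2 CPM in Wnt9bKO, at 14.5, 16.7 and 12.9 CPM in Rspo2KO and at 18.3, 20.2 and 19.8 CPM in DKO. Against wt *Wnt9b* was called higher in Wnt9bKO (log2 fold change 0.61, adjusted p = 0.0187) and in DKO (0.68, adjusted p = 0.0138). Counts summed over a whole gene do not show which exons were read, for *Wnt9b* or for *Rspo2*, so that the *Wnt9b* counts do not check the Wnt9bKO label. Total counts ranged from 11136166 to 18017344 per library. Small nuclear RNA genes summed to 352 to 353 CPM (wt), 386 to 420 CPM (Rspo2KO), 74.8 to 80.5 CPM (Wnt9bKO) and 70.1 to 82.7 CPM (DKO). *Xist*, the X-inactivation RNA of female cells, was at 680 to 1469 CPM in the libraries of wt and DKO and at 0.821 to 1.94 CPM in those of Wnt9bKO and Rspo2KO, so that sex and genotype cannot be told apart where wt or DKO is compared with Wnt9bKO or Rspo2KO, whereas DKO and wt were alike in it, as were Wnt9bKO and Rspo2KO. The small nuclear RNA levels cannot be told apart from the mutation of *Wnt9b* in any comparison of Wnt9bKO or DKO with wt or Rspo2KO, and in these bulk samples fewer cells of a type cannot be told apart from less RNA per cell.

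RefSeq promoter windows of 300 bases, from 250 before to 50 after the gene start on GRCm38.p6, were matched for 5 of the 9 genes, *Grhl3*, *Epcam*, *Krt8*, *Krt18* and *Cldn6*. Each of the 5 windows held the E-box CACCTG on either strand, the motif known to be bound by SNAI and ZEB repressors of epithelial genes. The same letters were found in 20.2% of all 32851 promoter windows. The windows of *Grhl3* and *Krt8*, the genes whose levels differed from wt, and of *Epcam*, the only member window with the Grainyhead-like core ACCGGT, are printed 5′ to 3′ on the strand of the gene. Capitals mark CACCTG, its reverse complement CAGGTG, and ACCGGT.
*Grhl3* chr4:135573583-135573882 (minus strand): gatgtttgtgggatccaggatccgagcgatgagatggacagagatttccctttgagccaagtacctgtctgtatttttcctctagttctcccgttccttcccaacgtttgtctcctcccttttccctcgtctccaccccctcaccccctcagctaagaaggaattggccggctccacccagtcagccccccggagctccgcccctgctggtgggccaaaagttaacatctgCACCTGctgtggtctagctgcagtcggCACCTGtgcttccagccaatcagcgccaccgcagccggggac
*Krt8* chr15:102004293-102004592 (minus strand): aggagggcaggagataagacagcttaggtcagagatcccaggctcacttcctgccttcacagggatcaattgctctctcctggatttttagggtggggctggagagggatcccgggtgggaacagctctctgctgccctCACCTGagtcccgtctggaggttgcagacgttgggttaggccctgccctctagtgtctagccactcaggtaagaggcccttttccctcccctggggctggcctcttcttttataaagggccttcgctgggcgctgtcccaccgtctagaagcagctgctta
*Epcam* chr17:87635729-87636028 (plus strand): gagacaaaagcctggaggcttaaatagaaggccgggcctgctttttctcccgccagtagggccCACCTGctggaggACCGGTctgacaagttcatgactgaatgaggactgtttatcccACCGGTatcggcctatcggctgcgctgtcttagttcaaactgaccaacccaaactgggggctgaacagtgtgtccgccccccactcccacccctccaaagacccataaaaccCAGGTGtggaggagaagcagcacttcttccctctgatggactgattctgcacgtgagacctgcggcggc

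In *Grhl3* the E-boxes began 19 bases before and 9 bases after the start, and in *Epcam* 187 and 19 bases before it. In *Krt8* the single E-box began 111 bases before the start, and in its neighbour and partner *Krt18* 214 bases before it. *Cldn6* held E-boxes 93 bases before and 41 bases after its start. Distances are counted from the RefSeq start, which for *Krt8*, *Krt18* and *Cldn6* lies inside the gene as annotated by GENCODE, whose positions are printed below. The E-box of *Krt8* and those of *Cldn6* lie within the GENCODE gene. The Grainyhead-like core was found at 2 places in *Epcam*, 174 and 131 bases before the start, and in 2.33% of all windows. The TCF/LEF core CTTTGA was found in *Grhl3* alone among the 5, 201 bases before the start, and in 5257 of all windows. The GC box GGGCGG lay in 3 of the 5 windows and in 35.7% of all, and the AP-2 motif GCCNNNGGC in 1 of the 5, that of *Krt18*, and in 16.6% of all. All motifs were searched on both strands and no matches overlapped each other. A match is a description of the letters and not of a bound site.

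The order of the 9 genes by level was taken per kilobase of exon, since their lengths differ. In wt the mean was highest for the simple-epithelium keratins, with *Krt8* at 34.1 and *Krt18* at 28.7 CPM per kilobase, followed by *Cldn6* at 22.4 and *Epcam* at 15.4. The adhesion gene *Cdh1* (6.39), the splicing factor gene *Esrp1* (3.92) and the transcription factor genes *Trp63* (3.76), *Grhl2* (2.05) and *Grhl3* (1.24) were lower. Between neighbours in this order, the wt libraries did not overlap for any pair except *Esrp1* and *Trp63*, at 4.17 and 3.67 against 3.63 and 3.88 CPM per kilobase. In Wnt9bKO and in DKO the means of *Krt8* (23.4 and 23.8), *Krt18* (24.5 and 25.1) and *Cldn6* (23.6 and 23.95) lay together.

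In comparison with wt, *Grhl3* rose and *Krt8* fell in both Wnt9bKO and DKO, and the other 7 genes did not pass the test in either. Called means an adjusted p below 0.05 by edgeR's quasi-likelihood test, two-sided and with Benjamini-Hochberg adjustment over all genes tested. In Wnt9bKO 2 of the 9 genes were called, against 32.8% of all genes tested, and in DKO likewise 2, against 27.5% of all genes tested. In Rspo2KO none of the 9 was called by edgeR or by DESeq2, none had an unadjusted p below 0.05, and 0.0346% of all genes tested were called. The median log2 fold change of the 9 genes was 0.16 in Wnt9bKO, -0.12 in Rspo2KO and 0.08 in DKO, beside 0.013, 0.0010 and 0.015 for all genes tested. The 3 comparisons share the 2 wt libraries.

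**Figure D1:**
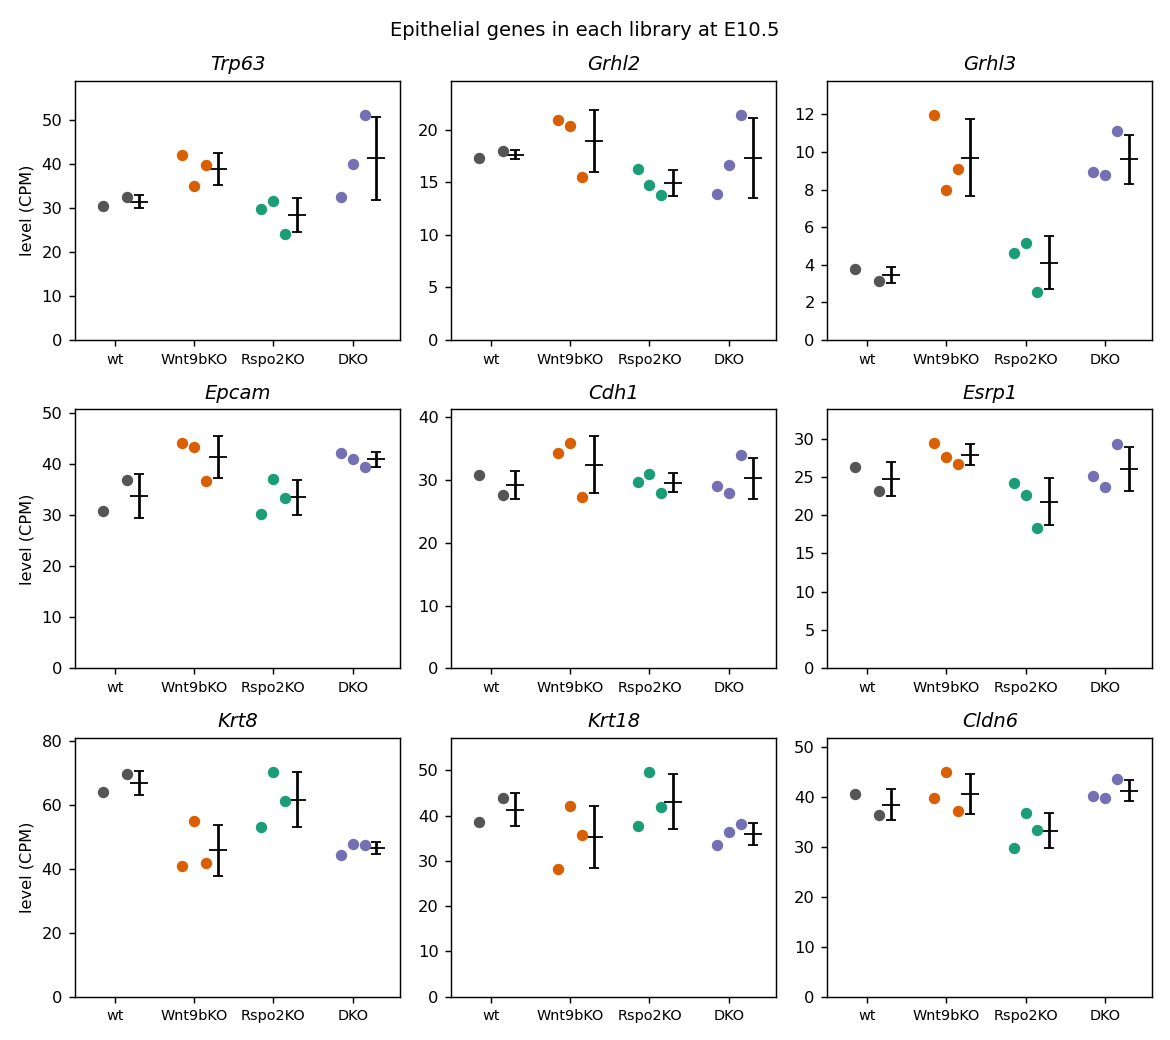
Level of each of the 9 epithelial genes in CPM (vertical axis, from 0) in the libraries of wt, Wnt9bKO, Rspo2KO and DKO. Points are libraries, and the black marks give mean and SD (n = 2 for wt, 3 for the others). *Grhl3* lies between 7.99 and 12.0 CPM in the 6 libraries of Wnt9bKO and DKO and between 2.53 and 5.16 CPM in the other 5.

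*Grhl3* (GRCm38 chr4:135541888-135573630, minus strand), which encodes a Grainyhead-like factor needed for neural tube closure, skin barrier formation and a normal periderm, showed the largest change among the 9. Its level was 3.75 and 3.14 CPM in wt, 12.0, 7.99 and 9.12 CPM in Wnt9bKO, 4.64, 5.16 and 2.53 CPM in Rspo2KO and 8.93, 8.78 and 11.1 CPM in DKO. All 6 libraries of Wnt9bKO and DKO were above all 5 libraries of wt and Rspo2KO. The counts behind these levels were low, from 40 to 225 per library. Against wt it rose 2.84-fold in Wnt9bKO (log2 fold change 1.504, SE 0.28, adjusted p = 0.00113) and 2.81-fold in DKO (1.49, SE 0.28, adjusted p = 0.00161). In Rspo2KO the log2 fold change was 0.26 (95% interval -0.36 to 0.88, adjusted p = 0.762). The calls in Wnt9bKO and DKO were made under all 22 alternatives, with log2 fold changes from 1.32 to 1.65 and from 1.35 to 1.60 and adjusted p-values up to 0.0250 and 0.0316.

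*Grhl2*, the paralog of *Grhl3* that maintains E-cadherin and claudin expression in epithelia, was at 17.3 and 17.9 CPM in wt, at 20.9, 20.3 and 15.5 CPM in Wnt9bKO, at 16.3, 14.8 and 13.8 CPM in Rspo2KO and at 13.9, 16.7 and 21.4 CPM in DKO. The mutant libraries lay on both sides of wt in Wnt9bKO and DKO and below it in Rspo2KO, and the log2 fold changes were 0.10 (SE 0.18), -0.025 (SE 0.18) and -0.24 (SE 0.18) for Wnt9bKO, DKO and Rspo2KO. None of these passed the test. The *Grhl2* locus also holds the genes *Gm16136*, *Gm16137* and *Gm16138* on the other strand, with up to 94 counts in a library, and the strand setting of the counting is not given in the sources used here. The ratio of *Grhl3* to *Grhl2* counts within a library was 0.216 and 0.175 in wt and 0.286, 0.350 and 0.183 in Rspo2KO. It was 0.573, 0.393 and 0.587 in Wnt9bKO and 0.641, 0.526 and 0.518 in DKO, above every library of wt and Rspo2KO.

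*Trp63* (GRCm38 chr16:25683763-25892102, plus strand) encodes p63, the master regulator of stratified epithelium, whose mutation causes ectodermal dysplasia with clefting. Its level was 30.5 and 32.6 CPM in wt, 42.1, 35.1 and 39.8 CPM in Wnt9bKO, 29.7, 31.6 and 24.1 CPM in Rspo2KO and 32.6, 40.1 and 51.3 CPM in DKO. All Wnt9bKO libraries and, by a small margin for DKO 1, all DKO libraries were above wt. The log2 fold changes were 0.31 in Wnt9bKO (95% interval -0.06 to 0.67, adjusted p = 0.186) and 0.39 in DKO (0.02 to 0.76, adjusted p = 0.106), and neither was called. The highest value, 51.3 CPM, came from the library labelled DKO 3, and without the library labelled DKO 1 the DKO difference was called (log2 fold change 0.54, adjusted p = 0.0350), while without DKO 3 it was 0.20 (adjusted p = 0.389).

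*Krt8* (GRCm38 chr15:101996698-102004482, minus strand) encodes a type II keratin that pairs with keratin 18, the product of *Krt18*, to form the filaments of simple epithelium. *Krt18* lies beside it (chr15:102028180-102032027, plus strand). *Krt8* was at 64.1 and 69.5 CPM in wt, at 40.9, 55.1 and 41.7 CPM in Wnt9bKO, at 53.2, 70.4 and 61.3 CPM in Rspo2KO and at 44.4, 47.8 and 47.5 CPM in DKO. The 6 libraries of Wnt9bKO and DKO were all below wt, while those of Rspo2KO lay on both sides of it. The log2 fold change was -0.54 in Wnt9bKO (SE 0.14, adjusted p = 0.00923) and -0.52 in DKO (SE 0.14, adjusted p = 0.0140), that is, levels 0.686 and 0.696 times those of wt. In Rspo2KO it was -0.12 (95% interval -0.42 to 0.19, adjusted p = 0.784). The *Krt8* calls depended on the processing. With an offset for GC content and gene length the log2 fold change was -0.34 in Wnt9bKO (adjusted p = 0.0958) and -0.38 in DKO (adjusted p = 0.0714), without the library labelled wt 2 it was -0.49 (adjusted p = 0.0836) and -0.46 (adjusted p = 0.112), and without DKO 1 it was -0.49 in DKO (adjusted p = 0.0512).

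*Krt18* was at 38.7 and 43.9 CPM in wt, at 28.2, 42.0 and 35.6 CPM in Wnt9bKO, at 37.7, 49.7 and 41.9 CPM in Rspo2KO and at 33.4, 36.4 and 38.2 CPM in DKO. Its libraries overlapped with wt in Wnt9bKO and lay just below it in DKO, and its log2 fold changes of -0.23 (95% interval -0.57 to 0.11) in Wnt9bKO and -0.20 (-0.54 to 0.14) in DKO were not called. The ratio of *Krt8* to *Krt18* counts within a library was 1.66 and 1.58 in wt, 1.45, 1.31 and 1.17 in Wnt9bKO, 1.41, 1.42 and 1.46 in Rspo2KO and 1.33, 1.31 and 1.24 in DKO. In every mutant library it was below both wt libraries, including those of Rspo2KO, whose mean of 1.43 ± 0.03 (SD, n = 3) lay between those of wt (1.62 ± 0.05, n = 2) and DKO (1.29 ± 0.05, n = 3). No test was made of the ratios, and each group has 2 or 3 values.

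*Epcam* (GRCm38 chr17:87635979-87651129, plus strand), encoding the epithelial cell adhesion molecule, was at 30.7 and 36.8 CPM in wt, at 44.0, 43.3 and 36.6 CPM in Wnt9bKO, at 30.2, 37.0 and 33.3 CPM in Rspo2KO and at 42.2, 41.0 and 39.4 CPM in DKO. The DKO libraries were all above wt and the Wnt9bKO libraries overlapped with it. The log2 fold change of 0.29 in Wnt9bKO (SE 0.13, adjusted p = 0.0988) and of 0.27 in DKO (SE 0.13, adjusted p = 0.130) was not called, but with the offset for GC content and length *Epcam* was called in both, at 0.42 (adjusted p = 0.0124) and 0.35 (adjusted p = 0.0329). Without wt 1 the log2 fold change of *Epcam* was 0.16 (adjusted p = 0.4996) and 0.14 (adjusted p = 0.583). In Rspo2KO the log2 fold change was -0.015 (95% interval -0.29 to 0.26). The ratio of *Krt8* to *Epcam* counts was 2.09 and 1.89 in wt and 1.76, 1.90 and 1.84 in Rspo2KO, against 0.929, 1.27 and 1.14 in Wnt9bKO and 1.05, 1.16 and 1.21 in DKO. The ratio in the 6 libraries of Wnt9bKO and DKO lay below that in all 5 libraries of wt and Rspo2KO.

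The remaining 3 genes, for adhesion, splicing and the tight junction, showed no called change against wt. *Cdh1*, encoding E-cadherin, was at 30.8 and 27.6 CPM in wt, at 34.3, 35.9 and 27.3 CPM in Wnt9bKO, at 29.7, 31.0 and 27.99 CPM in Rspo2KO and at 29.0, 27.9 and 34.0 CPM in DKO. Each mutant group overlapped with wt, and the 95% intervals of the log2 fold change ran from -0.14 to 0.45 in Wnt9bKO, from -0.27 to 0.32 in Rspo2KO and from -0.24 to 0.35 in DKO. *Esrp1*, whose product directs epithelial splicing of *Fgfr2* and other transcripts, was at 26.3 and 23.1 CPM in wt, at 29.4, 27.6 and 26.7 CPM in Wnt9bKO, at 24.3, 22.6 and 18.4 CPM in Rspo2KO and at 25.1, 23.7 and 29.3 CPM in DKO. The Wnt9bKO libraries were all above wt, with a log2 fold change of 0.18 (95% interval -0.12 to 0.48, adjusted p = 0.348). *Cldn6*, encoding a claudin of embryonic epithelia, was at 40.6 and 36.3 CPM in wt, at 39.7, 45.1 and 37.2 CPM in Wnt9bKO, at 29.7, 36.7 and 33.4 CPM in Rspo2KO and at 40.2, 39.9 and 43.6 CPM in DKO. The Rspo2KO libraries overlapped with wt, with a log2 fold change of -0.21 (95% interval -0.47 to 0.06, adjusted p = 0.537).

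**Figure D2:**
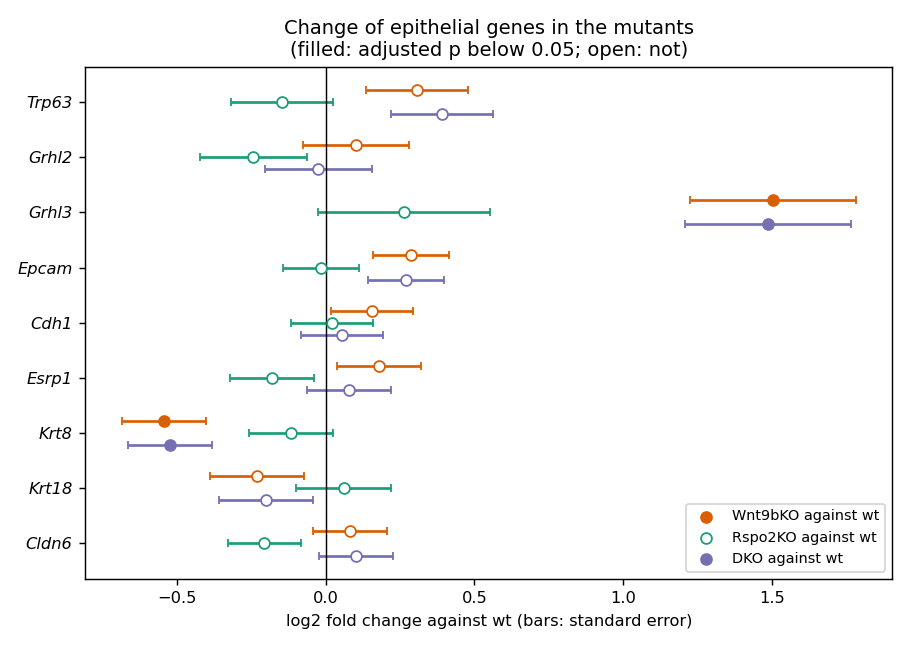
Log2 fold change against wt (horizontal axis) of the 9 epithelial genes in Wnt9bKO, Rspo2KO and DKO, with bars for the standard error. Filled symbols have an adjusted p below 0.05, which holds for *Grhl3* (1.504 and 1.49) and *Krt8* (-0.54 and -0.52) in Wnt9bKO and DKO and for no gene in Rspo2KO.

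Mutant and wt libraries did not overlap for 4 of the 9 genes in Wnt9bKO (*Trp63*, *Grhl3* and *Esrp1* above, *Krt8* below), which held for 56.3% of all genes tested. In DKO they did not overlap for 5 of the 9 (*Trp63*, *Grhl3* and *Epcam* above, *Krt8* and *Krt18* below), beside 58.1% of all genes tested, and in Rspo2KO for *Grhl2* alone, beside 32.9%. Under the call rule of more than 1.5-fold with an unadjusted p below 0.05, 1 of the 9 genes, *Grhl3*, passed in Wnt9bKO (24.8% of all genes tested) and in DKO (20.4%). The 9 genes were thus not called more often than genes at large in these comparisons.

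The double mutant was next compared with each of the other mutants. Against Wnt9bKO, none of the 9 genes was called in DKO, where 0.121% of all genes tested were called. None of the 9 had an unadjusted p below 0.05, and DESeq2 called none. This comparison includes Wnt9bKO 2 and DKO 3, whose *Rspo2* level went against the label. Without both, again none of the 9 was called, beside 20 of 17135 genes tested. Sex by *Xist* level also differed between these groups and cannot be told apart from the *Rspo2* mutation. The log2 fold changes ranged from -0.13 for *Grhl2* to 0.083 for *Trp63*, with 95% intervals of -0.48 to 0.45 for *Grhl3* and -0.25 to 0.30 for *Krt8*. The interaction, the departure of DKO from the sum of both log2 changes, was called for none of the 9, with 0.0635% of all genes tested called, no unadjusted p below 0.05 among the 9, and no call by DESeq2. It was -0.28 (95% interval -1.05 to 0.50) for *Grhl3* and 0.14 (-0.27 to 0.55) for *Krt8*. By *Xist* level wt and DKO stood apart from both single mutants, so that sex and the interaction cannot be told apart.

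Wnt9bKO and DKO were also compared with Rspo2KO. In DKO, *Trp63* (log2 fold change 0.54, SE 0.15, adjusted p = 0.0240) and *Grhl3* (1.23, SE 0.23, adjusted p = 0.00248) were higher and *Krt8* (-0.40, SE 0.13, adjusted p = 0.0395) was lower than in Rspo2KO, 3 of 9 beside 18.2% of all genes tested. In Wnt9bKO, *Trp63* (0.45, SE 0.15, adjusted p = 0.0396), *Grhl3* (1.24, SE 0.23, adjusted p = 0.00167) and *Esrp1* (0.36, SE 0.12, adjusted p = 0.0459) were higher and *Krt8* (-0.43, SE 0.13, adjusted p = 0.0238) was lower than in Rspo2KO, 4 of 9 beside 26% of all genes tested. *Grhl3* was called under all 22 alternatives in both comparisons, and it alone of the 9 passed the rule of more than 1.5-fold with an unadjusted p below 0.05, beside 12.2% and 16.9% of all genes tested in DKO and Wnt9bKO. The other calls were less stable, since in Wnt9bKO against Rspo2KO that of *Trp63* was lost in 11, that of *Esrp1* in 14 and that of *Krt8* in 7 of 22 alternatives, and in DKO against Rspo2KO that of *Trp63* was lost in 5 and that of *Krt8* in 9. Without the library labelled Rspo2KO 3, *Grhl3* was the only gene of the 9 called in either comparison. That library held the lowest level of *Trp63*, *Grhl2*, *Grhl3*, *Cdh1* and *Esrp1* within its genotype.

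**Figure D3:**
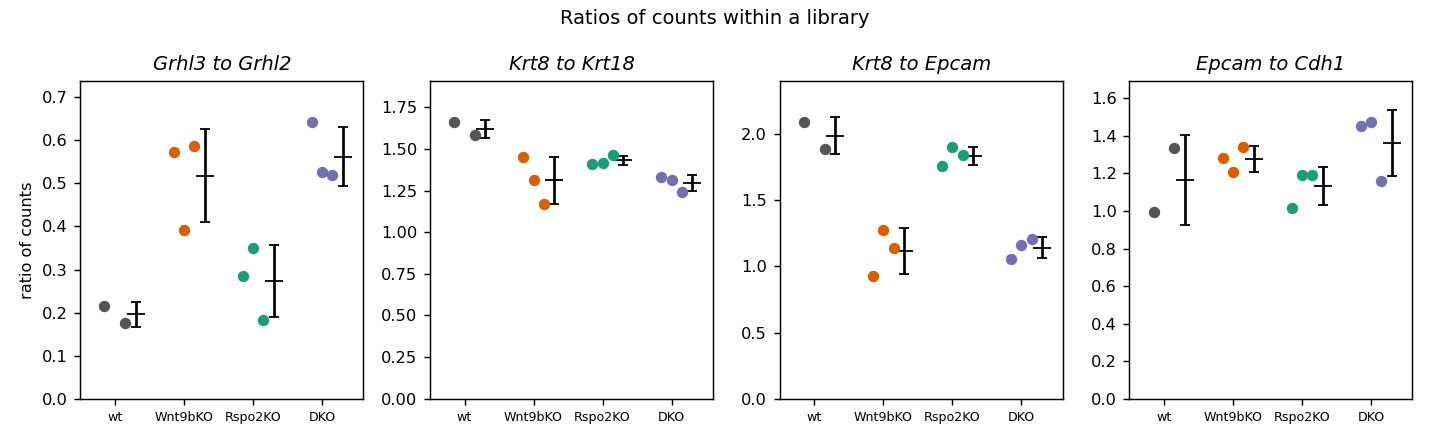
Ratios of counts of *Grhl3* to *Grhl2*, *Krt8* to *Krt18*, *Krt8* to *Epcam* and *Epcam* to *Cdh1* within each library (vertical axes, from 0), by genotype. Points are libraries and black marks give mean and SD. *Krt8* to *Epcam* lies between 0.929 and 1.27 in Wnt9bKO and DKO and between 1.76 and 2.09 in wt and Rspo2KO, whereas *Epcam* to *Cdh1* overlaps between all genotypes.

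The 9 genes were also compared in pairs between libraries of a genotype. After the genotype means were removed from log2 CPM, 29 of the 36 pairs of genes had a positive correlation over the 11 libraries, with a median Pearson r of 0.31. The points share library and depth, and no p is given. Pairs of genes at large were not counted, so that these correlations are not shown to be particular to the 9. The closest pairs were *Krt8* with *Krt18* (r = 0.89) and *Grhl3* with *Esrp1* (r = 0.86). In DKO 3 and in Rspo2KO 2, 8 of the 9 genes were above the mean of their genotype, while 8 were below it in the library labelled DKO 1 and 7 in each of those labelled Wnt9bKO 3 and Rspo2KO 3. Before the genotype means were removed, 22 of the 36 pairs were positive, the median r was 0.45, and *Grhl3* with *Krt8* had an r of -0.83. The summed level of the 9 genes did not separate the genotypes, at 283 and 291 CPM in wt, 270 to 312 CPM in Wnt9bKO, 255 to 299 CPM in Rspo2KO and 270 to 316 CPM in DKO.

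**Figure D4:**
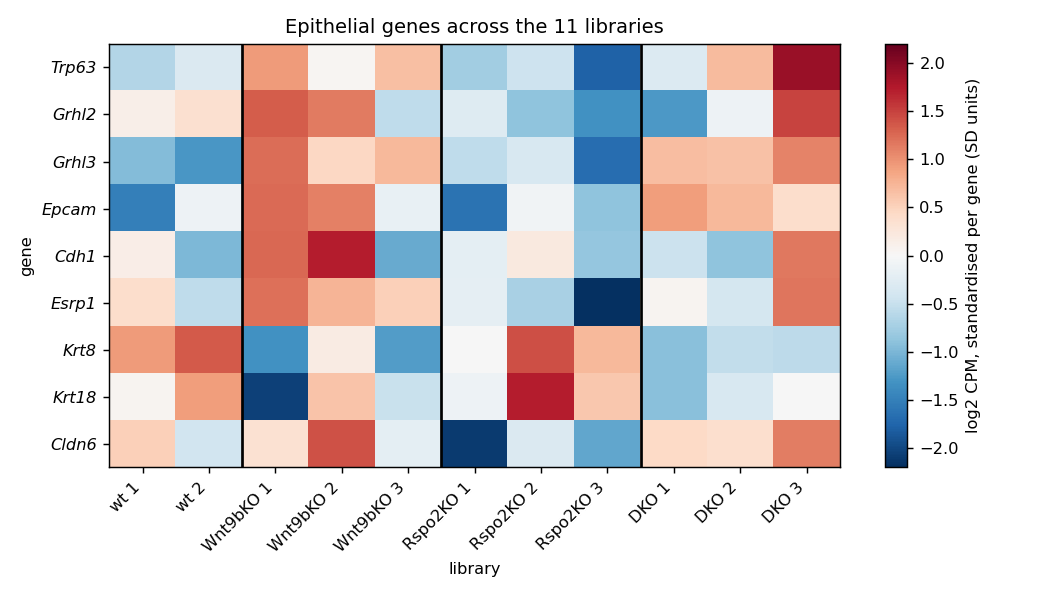
Log2 CPM of the 9 epithelial genes (rows) in the 11 libraries (columns), standardised per gene so that the color gives SD units above (red) or below (blue) the mean over all libraries. *Grhl3* is above its mean in all 6 libraries of Wnt9bKO and DKO, while *Krt8* is above its mean in wt, in Rspo2KO 2 and 3 and in Wnt9bKO 2.

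The tested genes most like the mean of the 9 standardised genes over the 11 libraries were *1700022I11Rik* (r = 0.92), *Gm12439*, *Cort*, *Gm20400*, *A830035A12Rik*, *Epn3*, *Cdc6*, *6330403L08Rik*, *Foxe1* and *Iars2* (r = 0.82). With the genotype means removed they were *1700022I11Rik* (r = 0.97), *Gm23969*, *Spint1* (r = 0.91), *Tbc1d7*, *Kank1*, *Dact2*, *Cgrrf1*, *Llgl2*, *Eif5al3-ps* and *Exosc5* (r = 0.89). *Foxe1*, a forkhead gene of the pharyngeal and oral epithelium, and *Spint1*, encoding an inhibitor of membrane serine proteases, are on the epithelial lists described next. Over the 90 tested genes of these lists the median r to that mean was 0.25, beside -0.0072 for all genes ranked. With the genotype means removed it was 0.15 beside 0.0012. The 9 genes did not all follow their own mean over the 11 libraries. *Krt8* (r = -0.25) and *Krt18* (r = -0.12) ran against it, while the others were between 0.68 (*Epcam*) and 0.84 (*Cldn6*). With the genotype means removed *Krt8* and *Krt18* were at 0.60 and 0.47.

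To set the 9 genes beside the rest of the epithelial program, 94 further genes on 7 lists were examined, of which 90 were tested. The lists were 6 by function and 1 of cleft-related genes, which added 3 genes not on the others. In Wnt9bKO 12 of the 90 were higher and 3 lower, in all 16.7% beside 32.8% of all genes tested, and in DKO 10 were higher and 2 lower, in all 13.3% beside 27.5%. In Rspo2KO edgeR called none, beside 0.0346% of all genes tested. DESeq2 called 2 of 64 list genes there, beside 179 of 11537 genes, and 10 of the 90 had an unadjusted p below 0.05. Between DKO and Wnt9bKO neither tool called any, where edgeR called 0.121% of all genes tested, and 2 had an unadjusted p below 0.05. The share of all genes at an unadjusted p below 0.05 alone was not counted. The median log2 fold change was 0.05 in Wnt9bKO, -0.06 in Rspo2KO and 0.0090 in DKO.

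Among 16 tested transcription and splicing factor genes, 3 rose in Wnt9bKO and the same 3 in DKO. Called shares of all genes tested were 32.8% and 27.5%. *Tfap2b*, encoding an AP-2 factor of facial ectoderm and crest, was at 45.8 and 43.3 CPM in wt and at 68.8 to 80.6 CPM in the 6 libraries of Wnt9bKO and DKO (log2 fold changes 0.73, adjusted p = 0.000694, and 0.72, adjusted p = 0.00105). *Foxe1* was at 2.50 and 2.84 CPM in wt and at 3.88 to 7.63 CPM in them (1.20, adjusted p = 0.00413, and 0.995, adjusted p = 0.0155). For *Foxe1* in DKO the call was lost when either wt library or DKO 3 was left out.

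Of 26 junction genes, 4 rose and 2 fell in Wnt9bKO, and 3 rose and 1 fell in DKO. These counts stand beside 32.8% and 27.5% of all genes tested that were called. *Dsp* and *Jup*, encoding the desmosomal proteins desmoplakin and plakoglobin, rose by log2 fold changes of 0.64 and 0.57 in Wnt9bKO (adjusted p = 0.00566 and 0.0134) and of 0.56 and 0.67 in DKO (adjusted p = 0.0144 and 0.00631). *Jup* was also above wt, at 17.2 and 19.3 CPM, in the Rspo2KO libraries, at 32.9, 23.3 and 24.1 CPM, and was at 29.8, 24.5 and 27.2 CPM in Wnt9bKO. *Marveld2*, which encodes the tricellular junction protein tricellulin, fell from 8.49 and 9.30 CPM in wt to 5.16, 4.77 and 5.04 CPM in Wnt9bKO and 6.87, 5.42 and 6.25 CPM in DKO (-0.84, adjusted p = 0.00168, and -0.53, adjusted p = 0.0272). *Patj*, a polarity gene, rose in both (0.46, adjusted p = 0.0155, and 0.43, adjusted p = 0.0260), a call that was lost in both with the offset for GC content and length. *Nectin1*, a clefting gene, and *Pkp3*, a plakophilin gene, both named after their values were seen, complete the junction calls in Wnt9bKO (0.51, adjusted p = 0.0354, and -0.86, adjusted p = 0.0238), and their calls held in 16 and 17 of 22 alternatives. *Nectin1* was not called with the offset or without either wt library, and *Pkp3* not without wt 2, Wnt9bKO 2 or Wnt9bKO 3. The Wnt9bKO call of *Dsp* was lost without wt 2 and that of *Jup* without wt 1, as was the DKO call of *Jup*. In DKO the *Dsp* call was lost with the offset, without wt 2 and without DKO 3, and that of *Marveld2* when either wt library, DKO 2 or DKO 3 was left out.

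The largest change on these lists was in a protease inhibitor gene. *Spint2*, whose product HAI-2 restrains matriptase and related proteases at the epithelial surface, was at 6.16 and 3.02 CPM in wt and at 5.62, 3.76 and 3.85 CPM in Rspo2KO. It was at 19.6, 13.2 and 15.7 CPM in Wnt9bKO and at 17.4, 18.4 and 16.8 CPM in DKO, above every library of wt and Rspo2KO (log2 fold change 1.86, SE 0.27, adjusted p = 0.000212, and 1.97, SE 0.27, adjusted p = 0.000159). These calls were made under all 22 alternatives. Its paralog *Spint1* was lower in DKO (-0.51, adjusted p = 0.0464), which held in 9 of 22 alternatives, and the other 11 of the 13 genes on this list were not called in either comparison. The list thus had 1 of 13 genes called in Wnt9bKO and 2 of 13 in DKO, beside 32.8% and 27.5% of all genes tested.

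Of 12 basement membrane and hemidesmosome genes, 3 rose and 1 fell in Wnt9bKO and 2 rose in DKO. Genes at large were called at 32.8% and 27.5%. *Dst*, encoding the hemidesmosomal linker dystonin, was at 147 and 173 CPM in wt and at 238 to 281 CPM in Wnt9bKO and DKO, where Rspo2KO was at 207 to 271 CPM (0.66, adjusted p = 0.00184, and 0.72, adjusted p = 0.00132). *Fras1*, encoding a protein of the epithelial basement membrane, was at 81.4 and 67.1 CPM in wt and at 103 to 121 CPM in them (0.68, adjusted p = 0.000883, and 0.53, adjusted p = 0.00524). *Frem2*, whose product acts in a complex with that of *Fras1*, rose in Wnt9bKO (0.52, adjusted p = 0.0183). With the offset for GC content and length none of these 3 genes was called in Wnt9bKO or DKO. None of the 15 genes for epithelial signals, among them *Fgf8*, *Shh* and *Bmp4*, was called in Wnt9bKO or DKO by edgeR or DESeq2, with 1 and 2 at an unadjusted p below 0.05. None of the 5 other keratin genes tested was called in these comparisons by edgeR or DESeq2, with 1 and 0 at an unadjusted p below 0.05.

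**Figure D5:**
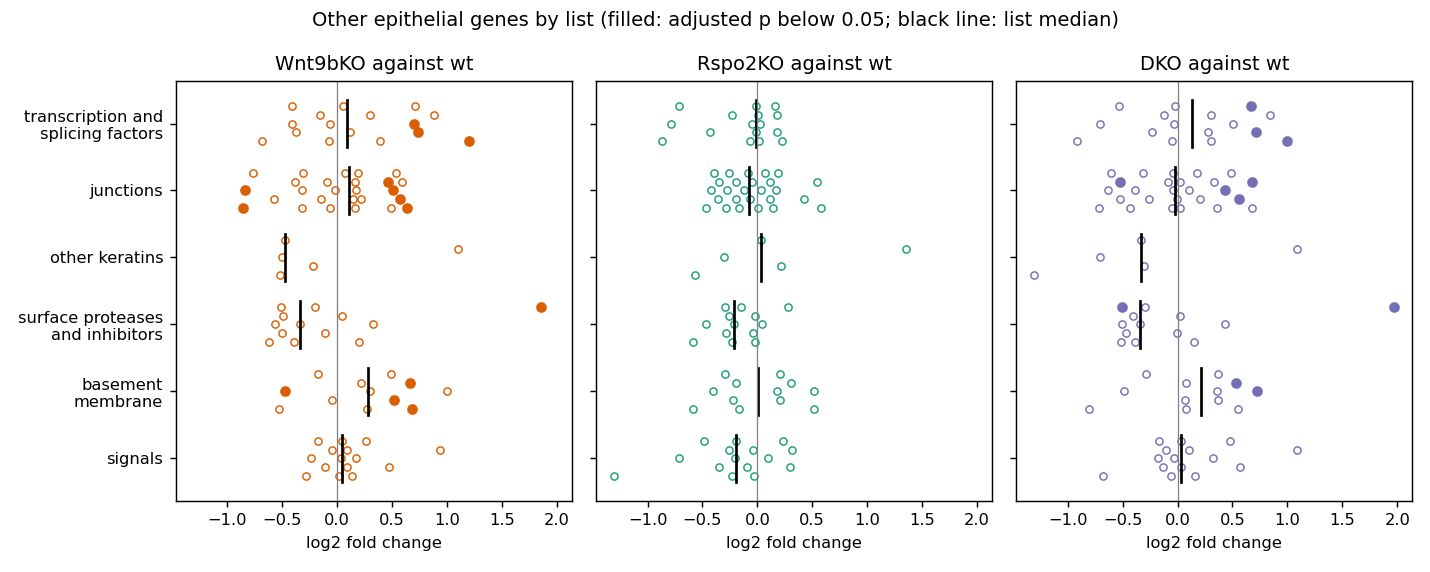
Log2 fold change against wt (horizontal axes) of the tested genes on 6 further epithelial lists (rows) in Wnt9bKO, Rspo2KO and DKO. Each point is a gene, filled symbols have an adjusted p below 0.05, and black lines give list medians. *Spint2* stands farthest to the right in Wnt9bKO and DKO, at 1.86 and 1.97, and no symbol is filled in Rspo2KO.

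On a list of 19 cleft-related epithelial genes, which overlaps with the lists above and with the 9 genes, 5 rose and none fell in Wnt9bKO and 4 rose and none fell in DKO, beside 32.8% and 27.5% of all genes tested that were called. Among them were *Grhl3*, *Foxe1* and *Specc1l* in both, and *Nectin1* in Wnt9bKO. *Specc1l*, a cytoskeletal gene mutated in oblique facial clefts, was at 91.8 and 112 CPM (wt) and at 148 to 174 CPM (Wnt9bKO and DKO) (0.66, adjusted p = 0.000531, and 0.58, adjusted p = 0.00157), and its DKO call was lost with the offset for GC content and length. In Rspo2KO *Specc1l* was not called, but at 117 to 125 CPM it was also above wt. *Esrp2*, the paralog of *Esrp1* and named after its values were seen, was not called, with log2 fold changes of 0.06 (SE 0.18) in Wnt9bKO and -0.02 (SE 0.18) in DKO.

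Of 10 periderm markers only 4 were tested, and *Sprr3* was at 0 counts in all libraries. Over all genes tested, 32.8% were called in Wnt9bKO and 27.5% in DKO. *Gabrp*, a GABA receptor subunit gene of the periderm, and *Grhl3* rose in both comparisons, and *Sfn* and *Cldn4*, named after their values were seen, were not called (-0.50 and -0.07 in Wnt9bKO, -0.51 and 0.03 in DKO). *Gabrp* was at 0.715 and 1.99 CPM in wt, at 8.94, 2.09 and 2.64 CPM in Wnt9bKO, at 2.40, 2.37 and 2.34 CPM in Rspo2KO and at 6.28, 7.29 and 6.37 CPM in DKO (1.68, adjusted p = 0.0302, in Wnt9bKO and 2.21, adjusted p = 0.00833, in DKO). Without the library labelled Wnt9bKO 1 or without wt 1 its Wnt9bKO call was lost, and without wt 1 that in DKO.

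Markers of the other cells of these explants were examined in the same comparisons. Of 21 mesenchyme markers 6 rose and none fell in Wnt9bKO and 3 rose and 1 fell in DKO, beside 32.8% and 27.5% of all genes tested that were called. Their summed level, which overlapped between Wnt9bKO and wt, was 3506 and 3534 CPM in wt, 3482 to 4978 CPM in Wnt9bKO, 3455 to 3678 CPM in Rspo2KO and 3935 to 4272 CPM in DKO. Among them *Zeb1*, encoding a repressor that binds E-boxes of epithelial genes, was at 60.3 and 66.9 CPM in wt and at 109 to 137 CPM in Wnt9bKO and DKO, with Rspo2KO at 79.6 to 107 CPM (log2 fold changes 0.90, adjusted p = 0.000255, and 0.99, adjusted p = 0.000151). *Zeb2*, *Fn1* and *Col1a1* were also called higher in Wnt9bKO, and *Zeb2* and *Col1a1* in DKO as well. In Wnt9bKO the *Zeb2* call held in 15 of 22 alternatives. The Wnt9bKO calls of *Zeb2* and *Fn1* were lost with the offset for GC content and length and without wt 2. That of *Col1a1*, like that of *Zeb2*, was lost when either wt library was left out. In DKO the calls of *Zeb2* and *Col1a1* each held in 20 of 22 alternatives. There that of *Zeb2* was lost with the offset and that of *Col1a1* when either wt library was left out. The summed level of 9 erythroid markers was 3986 and 4947 CPM (wt) and 4511 to 5824 CPM (Rspo2KO), but 1793 to 2391 CPM in Wnt9bKO and 1754 to 2860 CPM in DKO, with 5 and 6 of the 9 called lower, *Hbb-y* and *Hbb-bh1* in both. The part of these differences in the changes of *Grhl3* and *Krt8* was not tested.

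Markers of other epithelia were also present. Each list count below stands beside 32.8% of all genes tested called in Wnt9bKO and 27.5% in DKO. Of 12 tested placode, lens and olfactory markers 4 rose in Wnt9bKO and 3 in DKO, among them *Eya1*, *Sox3* and *Prox1* in both. None was called in Rspo2KO, but its libraries were also above wt for *Eya1* (56.0 to 59.0 against 46.7 and 48.4 CPM). The same held for *Prox1* (12.4 to 21.5 against 7.77 and 10.5 CPM), while *Sox3* overlapped with wt. In DKO the calls of *Eya1* and *Sox3* were lost when either wt library was left out, and that of *Eya1* also with the offset. The *Prox1* call was lost without wt 1 in both, and that of *Sox3* in Wnt9bKO without wt 2. The summed level of the list was 290 and 335 CPM in wt, 334 to 412 CPM in Wnt9bKO, 305 to 338 CPM in Rspo2KO and 341 to 417 CPM in DKO. Of 9 tested pharyngeal endoderm markers, 2 rose in both, *Nkx2-1* and *Hhex*, the latter at no more than 1.46 CPM and called in 9 of 22 alternatives in Wnt9bKO and 17 of 22 in DKO. The list had summed levels of 28.8 and 28.9 CPM (wt) and of 31.7 to 42.3 CPM (the 9 mutant libraries). Of 12 neuron and forebrain markers 5 rose and 2 fell in Wnt9bKO and 8 rose in DKO, with *Emx2* higher in both. Of 9 endothelial markers 2 rose and 4 fell in Wnt9bKO and 2 rose and 3 fell in DKO. Of 6 tested heart and skeletal muscle markers 4 fell in each, *Myl7*, *Tnni1*, *Actc1* and *Myh7*, whose levels in the library labelled wt 1 (9.65, 5.09, 24.5 and 10.9 CPM) were above those in wt 2 (1.93, 1.33, 4.95 and 1.03 CPM). Without wt 1 the calls of *Tnni1*, *Actc1* and *Myh7* were lost in both comparisons. Whether these cells had a part in the changes of the 9 genes was not tested. Without wt 1, *Grhl3* and *Krt8* were still called in Wnt9bKO and DKO. Without wt 2, *Grhl3* was called in both and *Krt8* in neither. Each of these fits had 1 wt library. Without both libraries whose *Rspo2* level went against the label, Wnt9bKO 2 and DKO 3, the genes called among the 9 were again *Grhl3* and *Krt8* in both comparisons with wt.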

How the data were processed

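RNA from facial process explants at E10.5 was sequenced as single-end reads. Trimming was by Cutadapt, mapping to GRCm38 by STAR and counting by HTSeq-Count, and the authors deposited raw counts per Ensembl gene for each library, without normalization. Genotypes and replicate numbers come from the labels, and the study states 3 samples per genotype, whereas 2 wt libraries were analysed here. Gene names and positions come from GENCODE annotation of GRCm38, which matched 36639 of the 38561 identifiers, and promoter sequences from RefSeq (GRCm38.p6).

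Counts were filtered with filterByExpr and scaled by TMM factors, and the 11 libraries entered 1 quasi-likelihood fit, in which every genotype had its own mean (edgeR 4.0.16, R 4.3.3). The p-values are two-sided and adjusted by the Benjamini-Hochberg method over 17317 genes. Intervals are 95% intervals of the fit. Correlations used log2 CPM with a prior count of 2. No libraries were duplicates of each other. Between libraries of the same number in different genotypes, 3 of 15 correlations of the deviations from the genotype mean were over 0.1, and the numbers were not treated as pairs. The code was tested on simulated data.

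The 9 genes and all lists were chosen with earlier results of these data known. Named genes are the 9 genes, *Wnt9b*, *Rspo2*, up to 3 called genes with the smallest p per list and comparison with wt, and the 10 genes most like the 9 over the 11 libraries, before and after removing genotype means. Other named genes were chosen after their values were seen, as were *Fgf8*, *Shh*, *Bmp4* and *Xist*. Some genes that the rule names are not reported here. Lists covered the 6 epithelial groups, cleft-related genes, periderm, mesenchyme, endoderm, placode, neuron and forebrain, endothelial, erythroid and heart and muscle markers.

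Alternatives were DESeq2 1.42.0, RLE or upper-quartile factors, testing without a low-count filter or with a minimum of 10 counts per library, fitting the compared groups alone, the replicate block, a loess correction for GC and length (span 0.3, known for 98.3% of tested genes) with and without the block, autosomal protein-coding genes, and leaving out each library or the pair Wnt9bKO 2 and DKO 3.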

Additional observations from a re-analysis of the deposited data

How the results depend on the processing

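Each log2 fold change was recomputed under 22 alternatives, all planned. *Grhl3* was called in Wnt9bKO and DKO, against wt and against Rspo2KO, under all of them. Of 814 recomputed changes of single genes, 727 kept their direction and side of the threshold. The 25 that changed sign were all of genes not called either way. With the GC and length offset *Cdh1* in Rspo2KO came to -0.0066, *Esrp1* in DKO to -0.034 and *Grhl2* in Wnt9bKO to -0.11, and with the offset and the block *Epcam* in Rspo2KO came to 0.032, *Esrp1* in DKO to -0.024 and *Grhl2* in Wnt9bKO to -0.12. Without Wnt9bKO 2 and DKO 3 together, *Cdh1* and *Esrp1* in DKO were at -0.040 and -0.019 and *Cldn6* in Wnt9bKO at -0.0015. Leaving out 1 library at a time gave ranges of -0.041 to 0.13 for *Cdh1* in DKO, -0.061 to 0.11 for *Cdh1* in Rspo2KO, -0.0036 to 0.17 for *Cldn6* in Wnt9bKO, -0.13 to 0.12 for *Epcam* in Rspo2KO, -0.020 to 0.16 for *Esrp1* in DKO, -0.21 to 0.11 for *Grhl2* in DKO and -0.040 to 0.15 for *Krt18* in Rspo2KO.

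With only the groups compared in the model, 5 of the 9 genes were called in DKO against Rspo2KO, beside 3390 of 16174 genes tested. In Wnt9bKO against Rspo2KO 2 of the 9 were called, beside 3439 of 16370. Of the other epithelial genes 20 were called in DKO against wt, beside 5719 of 16511. By more than 1.5-fold with an unadjusted p below 0.05, 1 of the 9 passed in Wnt9bKO and in DKO, against wt and against Rspo2KO. Without the low-count filter, 20 other epithelial genes were called in DKO and 5 in Rspo2KO against wt. Over all 28095 genes tested, 5075 and 572 were then called. DESeq2 called 2 in Rspo2KO, beside 179 of 11537 genes tested. When 1 library was left out, the 9 genes gave 1 to 3 calls in Wnt9bKO and 1 to 2 in DKO against wt, and 1 to 4 in each against Rspo2KO, and the other epithelial genes 9 to 19 in Wnt9bKO and 5 to 20 in DKO. The lowest counts of the other epithelial genes, in DKO and in Wnt9bKO, came without wt 2. That fit had 1 wt library, and fewer of all genes were called in it as well. For DKO the count rose to 20 without Wnt9bKO 1, where 5422 of 17105 genes tested were called, beside 4760 of 17317 in the main fit. The cause of these shifts was not tested.

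Libraries with the same number in different genotypes had deviations correlated at -0.11 to 0.24, and 8 of 11 libraries correlated best with their own number, a hint from the data and not the design. With the replicate block, 2 of the 9 genes were called in Wnt9bKO and 2 in DKO against wt, none in Rspo2KO, 3 in DKO and 4 in Wnt9bKO against Rspo2KO, and *Epcam* in Rspo2KO was at 0.027. Of all 17317 genes tested, 6056, 5134 and 7 were then called in Wnt9bKO, DKO and Rspo2KO against wt. Against Rspo2KO, 3475 were called in DKO and 4850 in Wnt9bKO. In Wnt9bKO against Rspo2KO *Epcam* was called in place of *Trp63*. For *Grhl3*, with the fewest counts of the 9, the interval of -0.36 to 0.88 in Rspo2KO includes changes of the size called for *Krt8*.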
